A study of Mus musculus with 6 samples.

Results

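The genes described here encode metabotropic receptors, the G protein-coupled receptors through which transmitters, peptides and lipid mediators act on a cell. They were taken from the deposited expression table by a rule on the gene symbol alone, which named the adrenergic, serotonin, dopamine, muscarinic, metabotropic glutamate, P2Y, adenosine, histamine, GABA-B, endothelin, opioid, cannabinoid, somatostatin, neuropeptide Y, VIP, sphingosine-1-phosphate and lysophosphatidic acid receptors. The rule found 86 of the 43383 rows of the table. The dopamine D1 receptor, which the table lists as Drd1a, does not match the rule and is not counted.

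Aldh1l1-eGFP mice provided the tissue, and green fluorescent astrocytes were sorted from layers II–IV and, separately, from layers V and VI of their somatosensory cortex, which gave upper-layer astrocytes (ULAs) and deep-layer astrocytes (DLAs). All animals were 4-week-old males, and they carried the same transgene, in which the Aldh1l1 promoter drives GFP, so that cells are included by the activity of that promoter and not by any receptor. Layer I, the meninges, the corpus callosum and part of the border between layers IV and V had been discarded. Each of 3 brains gave 1 ULA and 1 DLA library, and levels are given as RPKM, that is, reads scaled to the length of the mRNA and to the number of mapped reads, which allows genes of different length to be compared. The depth of the libraries, recovered from the values, was 19.7 to 29.6 M reads, where M stands for 1e6.

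Receptors of this class signal through heterotrimeric G proteins. Those coupled to Gq raise intracellular calcium through phospholipase C and IP3, those coupled to Gs raise cAMP, and those coupled to Gi lower cAMP and release active beta-gamma subunits. In cortical astrocytes, which do not fire action potentials, such receptors are the main route by which noradrenaline, glutamate, ATP, adenosine and peptides are sensed.

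Among the 86 receptor genes, 26 had a mean of at least 1 RPKM over the 6 libraries, 48 lay between 0 and 1 RPKM, and 12 were listed at 0 in every library. The 26 genes were compared between the layers within the fit over all 13999 rows of that level, by limma on log2(RPKM + 1), taking the brain as a block and with Benjamini-Hochberg adjusted p-values over all of these rows. Cnr1 and Grm3 were higher in ULAs with an adjusted p-value under 0.05, and 0 of the 26 were higher in DLAs. Over all rows tested, 0.714% were called higher in ULAs and 0.914% higher in DLAs. These shares are given for scale only, because the receptor genes were chosen with earlier results of these data known. Without adjustment, p fell under 0.05 for 6 receptor genes with higher ULA values and for 4 with higher DLA values, against 5.64% and 10.8% of all rows. In sorted pools of cells, fewer cells that carry an mRNA and less of it per cell cannot be told apart.

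Cnr1 encodes the CB1 cannabinoid receptor, a Gi-coupled receptor for endocannabinoids, and Grm3 encodes mGluR3, a Gi-coupled glutamate receptor. Since these are the genes whose levels differed between the layers, the 250 bases before their most upstream RefSeq start are shown, for Cnr1 from chr4:33924014-33924263 on the plus strand and for Grm3 from chr5:9725353-9725602 on the minus strand of GRCm38.p6. Capitals mark the GC box GGGCGG, read on either strand, which is the sequence bound by Sp-family factors.
Cnr1: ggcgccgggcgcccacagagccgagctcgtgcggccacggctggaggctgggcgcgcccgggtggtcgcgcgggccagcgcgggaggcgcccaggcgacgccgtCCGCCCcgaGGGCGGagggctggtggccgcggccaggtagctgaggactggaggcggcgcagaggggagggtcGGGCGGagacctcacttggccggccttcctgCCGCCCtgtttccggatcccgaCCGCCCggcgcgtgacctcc
Grm3: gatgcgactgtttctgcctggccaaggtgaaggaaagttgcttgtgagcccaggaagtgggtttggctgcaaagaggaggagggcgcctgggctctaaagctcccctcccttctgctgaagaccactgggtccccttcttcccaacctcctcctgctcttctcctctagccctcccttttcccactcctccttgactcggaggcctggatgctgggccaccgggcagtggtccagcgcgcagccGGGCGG
The Cnr1 window holds 5 GC boxes and 36 CG dinucleotides at a GC content of 79.2%, and the Grm3 window holds 1 GC box and 8 CG dinucleotides at 62.4%. Over all 32851 RefSeq windows of this length, 32.7% hold at least 1 GC box and the median GC content is 52.4%. The cAMP response half-site TGACG (17.8% of all windows) and the E-box CACGTG (6.0%) were searched on either strand and match neither sequence. Cnr1 has 3 RefSeq starts and Grm3 has 1, and which start these libraries used was not tested.

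**Figure D1:**
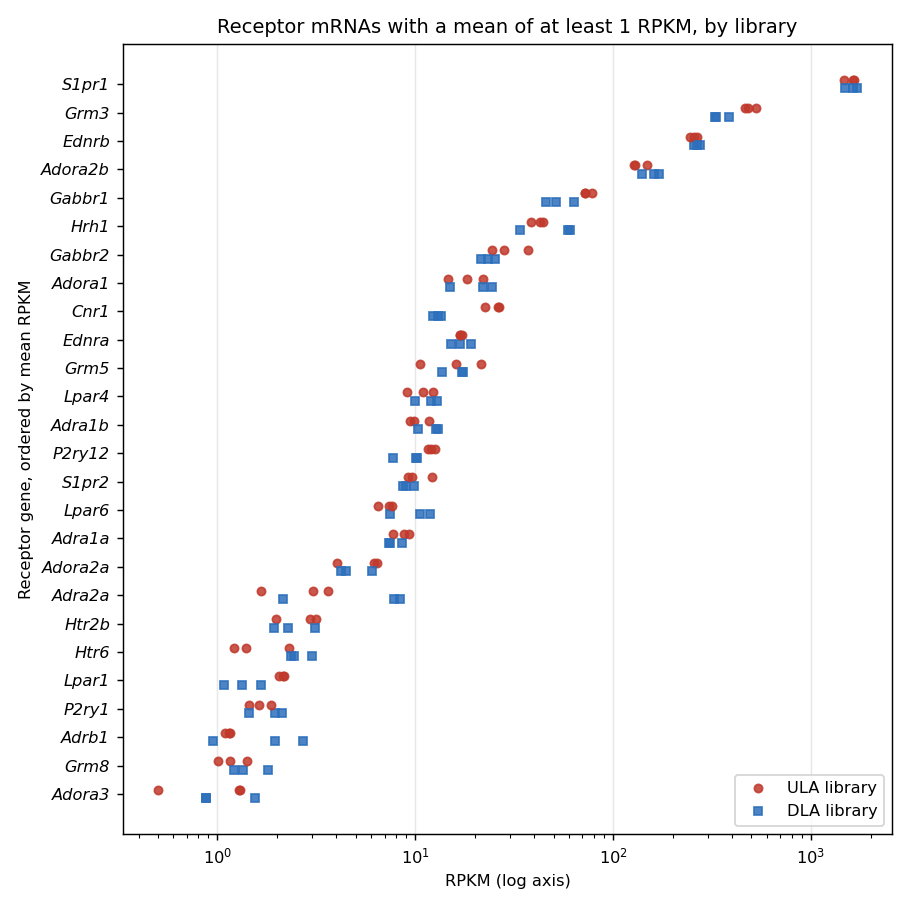
RPKM of the 26 receptor genes with a mean of at least 1 RPKM, on a log axis, in the 3 ULA libraries (circles) and the 3 DLA libraries (squares). S1pr1 has its lowest value at 1469.71 RPKM, and 4 genes exceed a mean of 100 RPKM.

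The levels of the receptor mRNAs were widely spread, and a few genes made up most of the total. S1pr1, the Gi-coupled sphingosine-1-phosphate receptor, gave 58.7% of the summed RPKM of all 86 genes, and together with Grm3, Ednrb and Adora2b it gave 89.1%. Ranked among all 43383 rows by mean RPKM, S1pr1 was at place 31, Grm3 at 124, Ednrb at 228 and Adora2b at 454. A further 14 receptor genes had a mean of at least 5 RPKM. These were, in falling order, Gabbr1, Hrh1, Gabbr2, Adora1, Cnr1, Ednra, Grm5, Lpar4, Adra1b, P2ry12, S1pr2, Lpar6, Adra1a and Adora2a. Families without any gene of 1 RPKM were those of dopamine, muscarinic, opioid, somatostatin, neuropeptide Y and VIP receptors.

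The cannabinoid receptor mRNA was 1.93 times as abundant in ULAs as in DLAs, with little spread between brains. Cnr1, on chromosome 4 from 34011607 to 34035806 of the table (mm9), had ULA values of 22.41, 26.65 and 26.07 RPKM in brains 1, 2 and 3 and DLA values of 12.35, 13.08 and 13.49 RPKM, in the same order. All 3 ULA values lay above all 3 DLA values. The SD of this ratio was 0.112 (mean 1.93, n = 3 brains), and the log2 fold change was 0.90 (SE 0.11, 95% interval 0.65 to 1.14, adjusted p = 0.00402, limma). Each library had between 1494 and 4043 reads of Cnr1. Neurons carry Cnr1 too, and the 8 neuronal markers examined (Rbfox3, Snap25, Syt1, Stmn2, Gad1, Gad2, Slc17a7 and Tubb3) summed to 6.84 to 7.29 RPKM in ULAs and 4.90 to 7.13 RPKM in DLAs. The upper-layer neuron markers Cux1, Cux2 and Rorb summed to 119.7 to 122.8 RPKM in ULAs and 86.6 to 129.7 RPKM in DLAs, most of it from Rorb, and the 4 deep-layer neuron markers to 21.6 to 28.4 and 19.0 to 31.5 RPKM. The part of neuronal RNA in the Cnr1 difference was not tested. Gad1 and Gad2, the markers of inhibitory neurons among them, were at 0.28 RPKM or less. Cnr2, which encodes the CB2 receptor of immune cells, was listed at 0.01 RPKM in the ULAs of brain 1 and at 0 elsewhere.

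Metabotropic glutamate receptor mRNA was dominated by Grm3, which was also the second gene that passed. Its ULA values were 463.70, 524.28 and 481.48 RPKM and its DLA values 328.02, 329.12 and 385.99 RPKM, again in the order of brains 1 to 3, so that the groups did not overlap. The ratio was 1.42 ± 0.173 (SD, n = 3 brains), with a log2 fold change of 0.50 (SE 0.10, 95% interval 0.27 to 0.72, adjusted p = 0.0401, limma), and the direction was the same in 3 of 3 brains. The call for Grm3 did not hold without brain 1 (adjusted p = 0.281), without brain 2 (0.053), without the brain as a block (0.176), after a correction for mRNA length (0.0674), without a variance trend (0.137) or with no filter on low RPKM (0.412), and the lowest adjusted p over all alternatives was 0.00109. On the table Grm3 spans 9485236 to 9725352 of chromosome 5.

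Grm5, the Gq-coupled glutamate receptor best known from young astrocytes, was present at a much lower level. It was measured at 16.11, 21.42 and 10.61 RPKM in ULAs and 17.30, 17.43 and 13.61 RPKM in DLAs, and these values overlap. Its log2 fold change was −0.05 (95% interval −0.35 to 0.25, adjusted p = 0.893), and its sign turned without brain 3 (0.09) and under quantile normalization (0.01). The RPKM of Grm3 was 24.5 to 45.4 times that of Grm5 in ULAs and 18.9 to 28.4 times in DLAs. Grm8, another Gi-coupled member, was at 1.20 ± 0.207 (SD, n = 3) in ULAs and 1.46 ± 0.310 RPKM in DLAs. Grm2, Grm4, Grm6 and Grm7 stayed at or below 0.53 RPKM in each library.

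**Figure D2:**
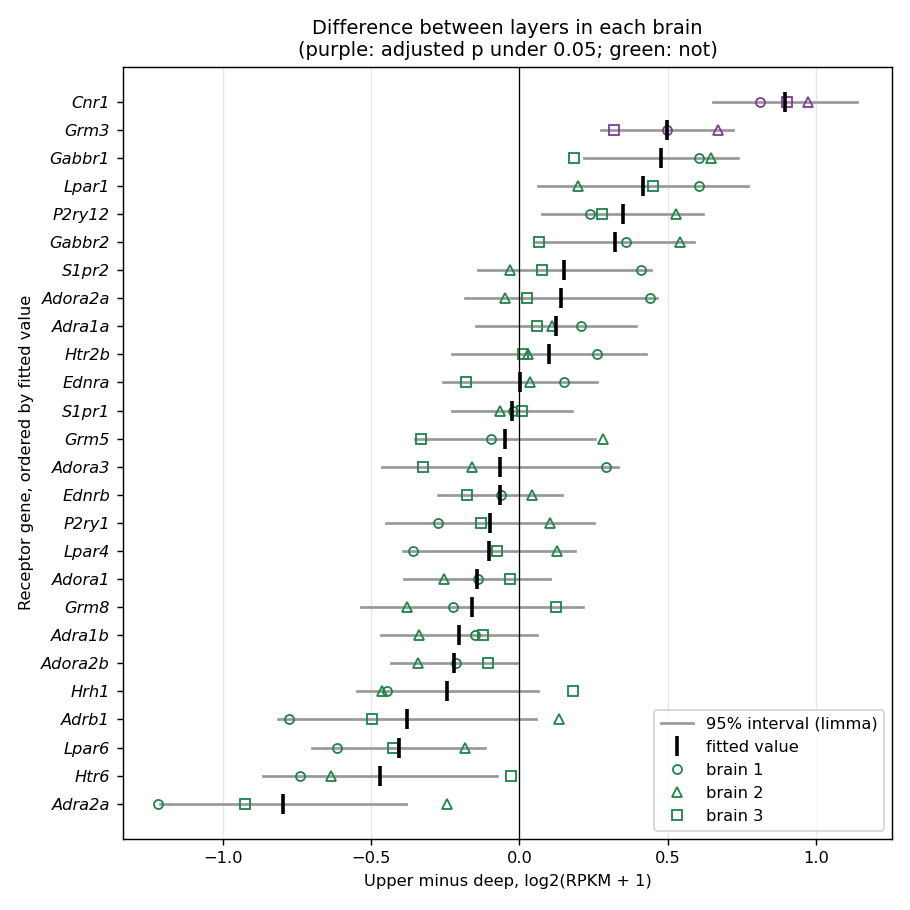
Difference between ULAs and DLAs on the log2(RPKM + 1) scale for the 26 receptor genes, with the value of each brain (open symbols), the fitted value (black bar) and its 95% interval (grey line). The points of Cnr1 lie between 0.81 and 0.97 in the 3 brains, whereas those of Adra2a lie between −1.22 and −0.24.

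GABA-B receptors work as dimers of the ligand-binding subunit GABBR1 and the G protein-coupling subunit GABBR2, and both mRNAs were higher in ULAs in 3 of 3 brains without passing over all rows. Gabbr1 was measured at 78.55, 72.26 and 72.20 RPKM in ULAs and at 51.36, 45.83 and 63.48 RPKM in DLAs. Every ULA value exceeded every DLA value, although brain 3 had the smallest gap. The log2 fold change was 0.48 (SE 0.12, 95% interval 0.22 to 0.74, adjusted p = 0.0834, limma), and Gabbr1 passed where rows of at least 5 RPKM were tested (adjusted p = 0.0446) and without brain 3 (0.000804), over a range of 0.000804 to 0.477 in all alternatives. Gabbr2 was at 27.96, 37.31 and 24.34 RPKM in ULAs and at 21.56, 25.35 and 23.20 RPKM in DLAs, where the ULA value of brain 3 lies below the DLA value of brain 2 (log2 fold change 0.32, SE 0.12, adjusted p = 0.224), and it passed without brain 3 (0.0313, highest 0.81). The RPKM of Gabbr1 was 1.94 to 2.97 times that of Gabbr2 in ULAs and 1.81 to 2.74 times in DLAs, and the lowest ratio in each layer came from brain 2.

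Among the receptors for noradrenaline, 4 of 9 genes had a mean of at least 1 RPKM, and the alpha-1 genes were the most abundant. Adra1b, whose product couples to Gq, was at 11.69, 9.84 and 9.36 RPKM in ULAs and 13.08, 12.70 and 10.27 RPKM in DLAs, higher in DLAs in 3 of 3 brains (log2 fold change −0.20, 95% interval −0.47 to 0.06, adjusted p = 0.426). Adra1a, of the same class, had means of 8.58 ± 0.802 RPKM (SD, n = 3) in the upper and 7.78 ± 0.656 in the deep layers, with a log2 fold change of 0.12 (95% interval −0.14 to 0.39). The values of these genes overlapped between layers, and the third alpha-1 gene, Adra1d, stayed at or below 0.16 RPKM.

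Adra2a, the Gi-coupled alpha-2A receptor, had the most negative difference of all 26 receptor genes, and it varied widely between brains. It was measured at 3.03, 1.67 and 3.63 RPKM in ULAs and at 8.38, 2.16 and 7.79 RPKM in DLAs. In each brain the DLA value was the higher, yet the DLAs of brain 2 lay below the ULAs of brains 1 and 3. The log2 fold change was −0.80 (SE 0.19, 95% interval −1.21 to −0.38, adjusted p = 0.0733, limma), and it was −1.07 without brain 2 (adjusted p = 0.0081) and −0.73 without brain 3 (adjusted p = 0.0187), with adjusted p-values of 0.0081 to 0.533 over the alternatives. Brain 2 also had the lowest DLA value of Adrb1, the Gs-coupled beta-1 receptor, with deep-layer values of 2.70, 0.95 and 1.95 RPKM against 1.16, 1.14 and 1.09 RPKM in ULAs (log2 fold change −0.38, adjusted p = 0.363). The DLA library of brain 2 is the shallowest of the 6, and its Adrb1 value rests on 47 reads. Adra2b, Adra2c and Adrb3 were at 0.05 RPKM or less.

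**Figure D3:**
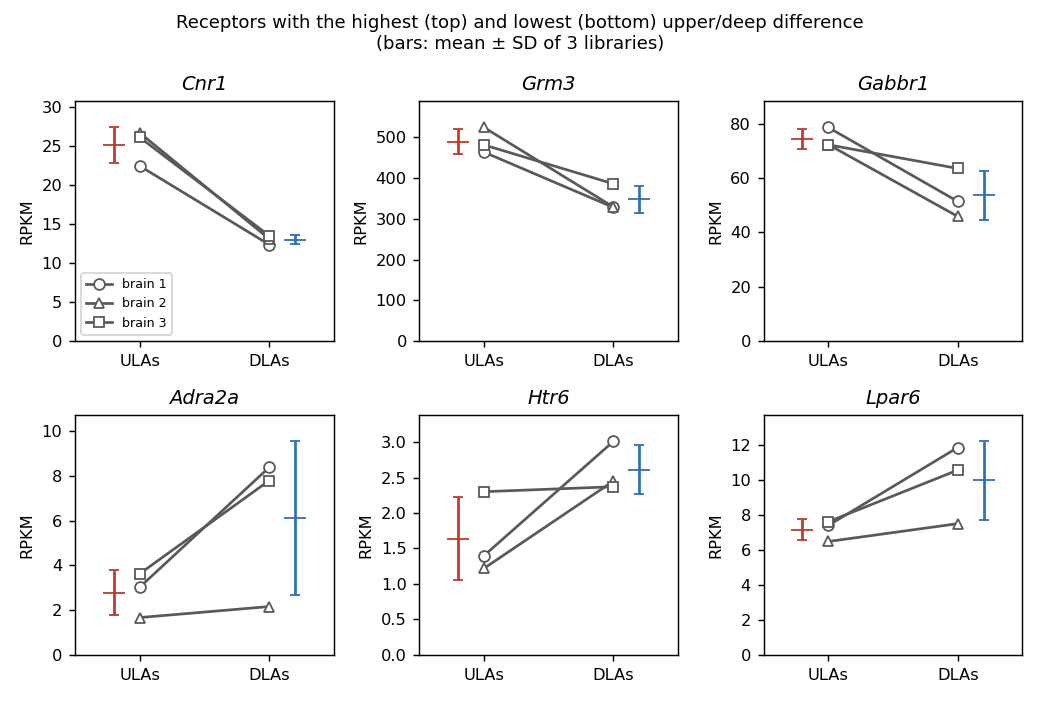
RPKM of the 3 receptor genes with the highest and the 3 with the lowest fitted difference, with lines joining the ULAs and DLAs of each brain and bars for the mean ± SD of 3 libraries. The lines of Cnr1, Grm3 and Gabbr1 fall from ULAs to DLAs in every brain, while those of Adra2a and Lpar6 are flattest in brain 2 and those of Htr6 in brain 3.

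Adenosine receptors were represented by all 4 genes, with the Gs-coupled Adora2b far above the others. Adora2b was at 147.60, 126.88 and 129.39 RPKM in ULAs and 171.19, 161.05 and 139.34 RPKM in DLAs. It was higher in DLAs in 3 of 3 brains, but the DLAs of brain 3 were below the ULAs of brain 1 (log2 fold change −0.22, SE 0.10, 95% interval −0.43 to −0.01, adjusted p = 0.293, limma). The Gi-coupled Adora1 went the same way in 3 of 3 brains by a smaller amount, with means of 18.3 ± 3.68 RPKM (SD, n = 3) in the upper and 20.5 ± 4.87 in the deep layers and a log2 fold change of −0.14 (95% interval −0.39 to 0.10). About 11.4% of the Adora1 exon length is shared with Mybph, a row on the opposite strand, so reads from the pair cannot be fully told apart. Adora2a was at 5.56 ± 1.32 and 4.92 ± 1.01 RPKM, and its log2 fold change of 0.14 turned to −0.01 without brain 1. The row listed as Adora3, with 0.50 to 1.30 RPKM in ULAs and 0.88 to 1.55 RPKM in DLAs, joins transcripts that RefSeq assigns to Adora3 and to Tmigd3, and its reads cannot be given to either gene.

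For ATP and ADP, the P2Y receptor genes were low except for P2ry12. P2ry12, whose product is a Gi-coupled ADP receptor and a standard marker of microglia, was at 12.07, 11.63 and 12.60 RPKM in ULAs and 10.08, 7.76 and 10.22 RPKM in DLAs. All ULA values lay above all DLA values (log2 fold change 0.35, SE 0.12, 95% interval 0.08 to 0.62, adjusted p = 0.199, limma), on 357 to 787 reads per library. The microglial markers Cx3cr1, Tmem119, Csf1r, Aif1, C1qa, C1qb, C1qc and Ctss were each at 1.07 RPKM or less in every library, and P2ry6 and P2ry13, receptors of microglia as well, were at 0.37 RPKM or less. P2ry12 thus lay above all 10 of these genes in every library.

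P2ry12 lies next to P2ry13 and P2ry14 on chromosome 3 of the table, within 58918547 to 59066753, and no exon of these rows overlaps another row. P2ry14, a Gi-coupled receptor for UDP-sugars, was at 0.97, 1.06 and 1.22 RPKM in ULAs and 0.81, 0.65 and 0.91 RPKM in DLAs, on 23 to 59 reads, and was below the level tested. P2ry1, the Gq-coupled ADP receptor, was at 1.64 ± 0.210 and 1.84 ± 0.352 RPKM (SD, n = 3; log2 fold change −0.10, 95% interval −0.45 to 0.25). P2ry2, a Gq-coupled receptor for ATP and UTP, had between 0.61 and 1.30 RPKM, whereas P2ry4 and P2ry10 were listed at 0 throughout.

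Endothelin and sphingosine-1-phosphate receptors were abundant, and none of their 4 tested genes passed. S1pr1 was measured at 1469.71, 1640.65 and 1632.74 RPKM in ULAs and 1492.02, 1715.85 and 1622.38 RPKM in DLAs. Its values followed the brain more than the layer, being lowest in brain 1 in both layers, with a log2 fold change of −0.03 (SE 0.09, 95% interval −0.23 to 0.18, adjusted p = 0.917, limma). Ednrb, the endothelin B receptor, a calcium-mobilising receptor and a marker of astrocytes, was at 254.82, 263.99 and 243.89 RPKM in ULAs and 266.35, 256.62 and 275.56 RPKM in DLAs (log2 fold change −0.07, 95% interval −0.27 to 0.14). Ednra was 14.3 to 17.7 times lower than Ednrb, with 17.0 ± 0.277 RPKM (SD, n = 3) in the upper and 17.1 ± 2.08 in the deep layers, and its log2 fold change of 0.00 (95% interval −0.26 to 0.26) became −0.03 after a correction for mRNA length, −0.07 without brain 1 and −0.02 without brain 2. An unnamed row on the opposite strand, at a mean of 14.03 RPKM, shares 2.5% of the Ednra exon length. S1pr2 followed at 10.4 ± 1.61 and 9.18 ± 0.620 RPKM, S1pr3 and S1pr5 did not exceed 0.73 RPKM, and S1pr4 was detected in 1 library only.

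Lysophosphatidic acid receptors comprised 6 genes, of which 3 were tested and pointed in different directions. Lpar1 was at 2.16, 2.05 and 2.18 RPKM in ULAs and 1.08, 1.66 and 1.33 RPKM in DLAs, with no overlap (log2 fold change 0.42, SE 0.16, adjusted p = 0.235, limma). Lpar6 was at 7.40, 6.48 and 7.61 RPKM in ULAs and 11.85, 7.50 and 10.56 RPKM in DLAs, higher in DLAs in 3 of 3 brains, although the DLAs of brain 2 fell just below the ULAs of brain 3 (log2 fold change −0.41, SE 0.13, adjusted p = 0.168). Lpar4, the most abundant, was at 10.8 ± 1.56 and 11.6 ± 1.52 RPKM, and its log2 fold change of −0.10 turned to 0.02 without brain 1. Neither Lpar1 nor Lpar6 passed over all rows, and their difference from each other was not tested. Lpar1 is also expressed by oligodendrocytes, whose 8 markers summed to 86.7 to 177.7 RPKM in ULAs and 176.3 to 278.7 RPKM in DLAs, 6 of the 7 tested markers being higher in DLAs. The oligodendrocyte markers thus moved opposite to Lpar1 and in the direction of Lpar6, and their part in either was not tested.

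Serotonin and histamine receptors were represented by few genes. Hrh1, the Gq-coupled H1 receptor, was at 44.35, 42.61 and 38.64 RPKM in ULAs and at 60.80, 59.12 and 33.97 RPKM in DLAs, so that the DLA values exceeded all ULA values in brains 1 and 2 and fell below them in brain 3. Over the 3 brains the log2 fold change reached −0.24 (SE 0.14, adjusted p = 0.409, limma), and it was −0.45 (adjusted p = 0.0187) without brain 3, with a highest adjusted p of 0.977 over the alternatives. Hrh2, Hrh3 and Hrh4 did not exceed 0.27 RPKM. Htr6, a Gs-coupled serotonin receptor, was at 1.40, 1.22 and 2.30 RPKM in ULAs and 3.01, 2.45 and 2.37 RPKM in DLAs, the only receptor gene of the 26 in which every DLA value lay above every ULA value (log2 fold change −0.47, SE 0.18, adjusted p = 0.229, and −0.69 with an adjusted p of 0.0302 without brain 3, against at most 0.873 under the other alternatives). Htr2b, a Gq-coupled receptor, was at 2.69 ± 0.620 and 2.45 ± 0.617 RPKM (SD, n = 3), and the other 10 serotonin receptor genes did not exceed 0.20 RPKM.

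Of the 60 receptor genes under 1 RPKM, 17 were listed above 0 in all 6 libraries, 31 in some of them and 12 in none, and 20 had at most about 3 reads over the 6 libraries together. The 12 genes listed at 0 were Chrm5, Drd4, Drd5, Grm6, Htr1a, Htr5b, Npy5r, Npy6r, Oprd1, P2ry10, P2ry4 and Sstr4. A value of 0 does not exclude a read, because the values were truncated, and 1 read is listed at 0 in mRNAs longer than 3000 to 5000 bases, depending on the library. The muscarinic genes other than Chrm5 were at 0.54 RPKM or less. The opioid receptors Oprm1, Oprk1 and Oprl1 were at 0.18 RPKM or less, Vipr2 at 0.62 RPKM or less, and Sstr2, the highest of the somatostatin receptors, at 0.43 RPKM or less. The 60 genes were not tested in the main fit. With no filter on low RPKM, 74 receptor genes were fitted, and 0 of them passed after adjustment. In that fit 0 of all 27963 rows passed, so it cannot decide whether these genes differ between the layers.

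**Figure D4:**
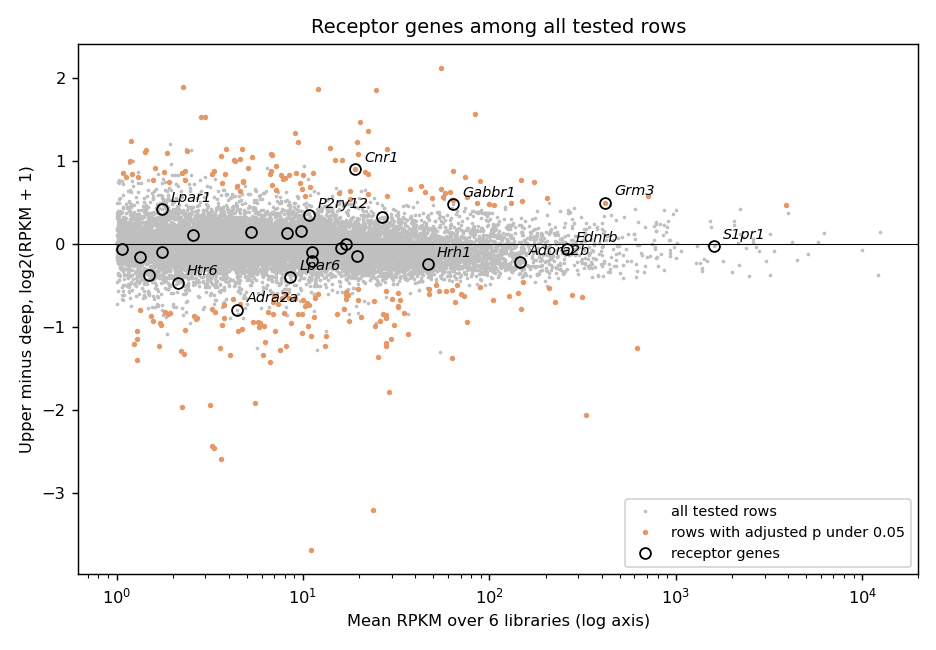
Difference between layers on the log2(RPKM + 1) scale against the mean RPKM (log axis) for all 13999 rows tested (grey), those with an adjusted p under 0.05 (orange) and the 26 receptor genes (open circles, some named). Of the receptor genes, 24 lie within 0.5 of 0.

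The log2 fold changes of the 26 receptor genes ran from −0.80 to 0.90, with a median of −0.06 against −0.03 for all rows tested. Their median absolute value was 0.18, against 0.14 for all rows, and 24 of them (92.3%) lay within 0.5 of 0, against 95.9% of all rows. In 3 of 3 brains, 8 receptor genes had higher ULA values (Adra1a, Cnr1, Gabbr1, Gabbr2, Grm3, Htr2b, Lpar1 and P2ry12) and 6 had higher DLA values (Adora1, Adora2b, Adra1b, Adra2a, Htr6 and Lpar6), against 15.2% and 23.2% of all rows. The ULA values lay wholly above the DLA values for 5 receptor genes and wholly below for 1, against 6.59% and 9.27% of all rows. By coupling, 10 tested genes signal through Gi, 8 through Gq, 4 through Gs and 4 through several G proteins, with median log2 fold changes of 0.15, −0.06, −0.30 and 0.02. The Gs group was made up of Adora2b, Adora2a, Htr6 and Adrb1, of which only Adora2a had a positive value and none passed. Positive values were found for 5 of the 10 Gi genes, 3 of the 8 Gq genes and 2 of the 4 with several G proteins. A difference between the coupling groups was not tested.

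The wider signalling machinery was described with lists of G protein subunits, effectors, regulators, other peptide receptors, and ligand precursors and enzymes. These lists were chosen with earlier results of these data known. Their shares of called genes therefore cannot be read against those of all rows as a test. Of 155 genes in these lists 82 were tested, 3 (3.66%) passed with higher ULA values and 4 (4.88%) with higher DLA values, against 0.714% and 0.914% of all rows, and their median log2 fold change was 0.03. Without the brain as a block limma called 0 and 0 of them (8 and 4 at an unadjusted p under 0.05), where 23 and 18 of all rows passed. Those higher in DLAs were Gnas, which encodes the Gs alpha subunit, Gng11, a gamma subunit, Adcy8, a calcium-stimulated adenylyl cyclase, and Enpp2, the enzyme that makes lysophosphatidic acid. Gnas was measured at 29.79, 13.38 and 34.13 RPKM in ULAs and 45.90, 22.12 and 48.93 RPKM in DLAs, low in brain 2 in both layers (log2 fold change −0.60, SE 0.10, adjusted p = 0.0198, limma). Adcy8 was at 0.89, 1.18 and 1.04 RPKM in ULAs and 2.61, 3.09 and 2.14 RPKM in DLAs, and the groups did not overlap (log2 fold change −0.82, SE 0.16, adjusted p = 0.031). For Gng11 the log2 fold change was −0.61 (adjusted p = 0.0396), and for Enpp2 it was −0.71 (adjusted p = 0.0454). The values of both genes overlapped between layers. The ULAs of brain 3 (8.68 and 11.69 RPKM) lay above the DLAs of brain 1 (7.51 and 11.10 RPKM). Enpp2 is also made by oligodendrocytes, whose markers moved the same way, and their part in it was not tested.

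Higher in ULAs were Pde3a, a cAMP-degrading phosphodiesterase, Rgs5, a GTPase-activating protein for G proteins, and Adcyap1r1, the receptor for the peptide PACAP. Pde3a was at 1.96, 1.62 and 2.08 RPKM in ULAs and 0.14, 0.40 and 0.89 RPKM in DLAs, also without overlap (log2 fold change 0.995, SE 0.18, adjusted p = 0.026, limma). Adcyap1r1 was at 41.08, 29.87 and 31.08 RPKM in ULAs and 24.39, 21.88 and 20.72 RPKM in DLAs, without overlap (log2 fold change 0.57, SE 0.11, adjusted p = 0.031). Rgs5 was at 2.25 ± 0.395 and 0.897 ± 0.133 RPKM (SD, n = 3; log2 fold change 0.77, adjusted p = 0.0455). It is also a pericyte marker, and the 6 pericyte and smooth muscle markers, Rgs5 among them, summed to 15.2 to 21.9 RPKM in ULAs and 11.25 to 17.93 RPKM in DLAs, and the part of these cells in the difference was not tested. All 7 called genes kept 1 direction over the 3 brains.

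Of the most abundant gene of each of the 9 lists, none passed. Among the alpha subunits Gnai2, of the Gi class, had means of 115.0 ± 8.04 RPKM (SD, n = 3) in the upper and 116.8 ± 7.75 in the deep layers. Over the 6 libraries together Gng12 led the gamma subunits, at 57.4 ± 7.73 and 49.9 ± 6.61. In the deep layers alone Gng10 had the higher mean, at 54.7 ± 8.32 RPKM against 45.2 ± 9.46 in the upper layers. Plcb1, the phospholipase C of the Gq route, was at 55.1 ± 11.5 and 58.9 ± 17.4 RPKM, Prkar1a, a regulatory subunit of protein kinase A, at 93.3 ± 4.09 and 96.3 ± 1.52, Pde8b at 53.7 ± 1.99 and 51.8 ± 6.10, and Rgs20 at 198.8 ± 21.7 and 200.3 ± 30.6. Adrbk2, a receptor kinase, was at 20.6 ± 2.61 and 26.0 ± 5.17 RPKM. Ppap2b, a lipid phosphatase that breaks down lysophosphatidic acid and sphingosine-1-phosphate, was at 1606.9 ± 82.8 and 1631.0 ± 135.1 RPKM. Ntsr2, the neurotensin receptor outside the rule, exceeded every receptor gene described above at 2136.4 ± 177.4 and 2812.3 ± 333.9 RPKM and was higher in DLAs in 3 of 3 brains without passing (log2 fold change −0.39, SE 0.12, adjusted p = 0.142, limma).

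**Figure D5:**
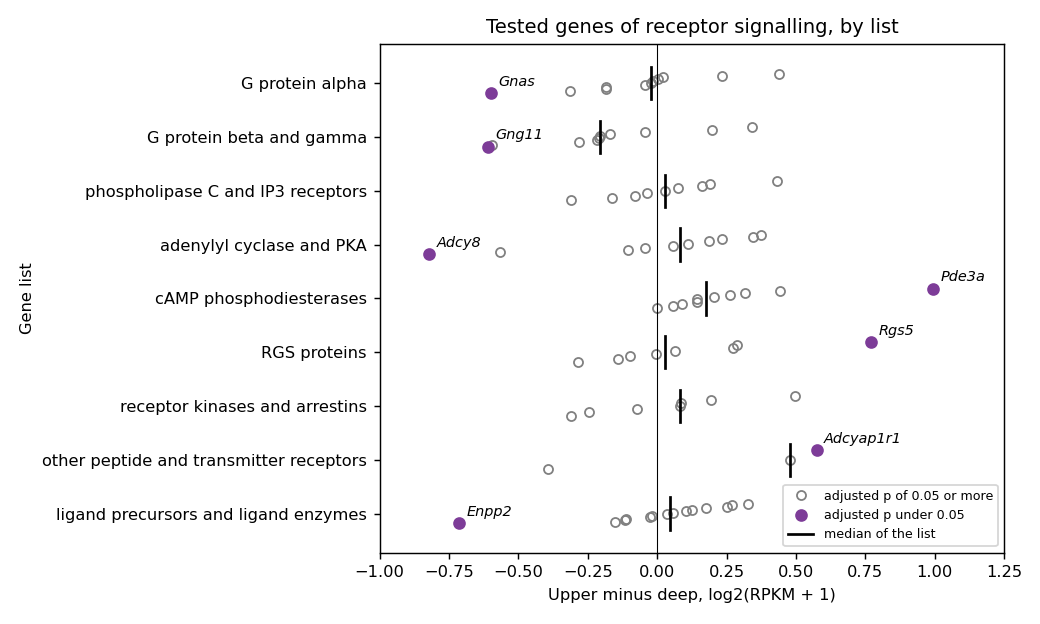
Difference between layers on the log2(RPKM + 1) scale for the tested genes of each signalling list, with genes of an adjusted p under 0.05 filled and named and the median of each list as a black bar. The medians lie between −0.21 and 0.48, and the last of these rests on 3 genes.

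The cell type named by the labels was checked on the same table. The 11 astrocyte markers summed to 13292 to 14035 RPKM in ULAs and 12129 to 12997 RPKM in DLAs, without overlap. Of these markers, 1 was called higher in DLAs. Precursor and endothelial markers summed to at most 2.60 RPKM, and the 8 general neuronal markers to at most 7.29 RPKM. The upper-layer and deep-layer neuron markers reached more, up to 129.7 and 31.5 RPKM, and which cells they came from was not tested. Other lists moved with the layer too. Blood cell markers summed to 0.81 to 1.07 RPKM in ULAs and 2.74 to 17.04 RPKM in DLAs, and 1 of the 2 tested was called higher in DLAs. Meningeal fibroblast markers summed to 3.07 to 4.11 RPKM in ULAs and 4.95 to 6.27 RPKM in DLAs, and the oligodendrocyte markers given above were higher in DLAs as well. The part of these cells in the receptor differences was not tested. Across all rows, longer mRNAs had higher upper/deep ratios (Spearman's rho across rows of 0.21, 0.37 and 0.10 in brains 1, 2 and 3), and the tested receptor mRNAs, with a median of 3590 bases against 2444 for all tested rows, are long.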

How the data were processed

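RNA from GFP-positive astrocytes of 3 mouse brains was amplified with SMART-Seq v4, and Nextera XT libraries were sequenced on a HiSeq instrument. The authors deposited RPKM values for 6 libraries, with the mRNA length of each row. The submitters' processing notes name bcl2fastq 1.8.4, CASAVA 1.8.2 and the genome build mm9, and the aligner and the counting program are not given in the sources used here. The RPKM derive from RPM values truncated to 2 decimals, divided by length and truncated again. In rows of up to 500 bases this gave each library's depth as the number of reads at which 99.4% to 100% of the values were whole reads (at most 53.4% at the next best number). Read numbers quoted for single genes follow from this depth and are approximate.

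Fitted were the rows whose RPKM averaged at least 1, on log2(RPKM + 1), which understates the change of low genes, with limma 3.58.1 in R 4.3.3 (eBayes with an intensity trend, 2-sided, Benjamini-Hochberg, threshold 0.05). Tables and figures were made in Python 3.11.15 with pandas 2.3.3, numpy 2.4.6 and matplotlib 3.10.9, and the fit was checked on simulated data. The replicate number in the labels was taken as the brain, since the study used 3 brains and a paired test. Deviations from the layer means correlated across rows for equal numbers (r of 0.42, 0.33 and 0.34) and not for unequal ones (−0.20 to −0.16). With 3 pairs the smallest exact permutation p is 0.25, and 0.1 without pairing, so limma alone was used. Alternatives changed the pseudocount, filter, scaling, length correction, trend, block, threshold and brains included.

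Genes named with their values are those that passed, those of at least 5 RPKM in the higher layer and the 5 highest and 5 lowest differences, and other members of a family are given beside them. The members and the gene lists were chosen with earlier results of these data known. Promoter windows came from RefSeq on GRCm38.p6, which held 68 of the 86 genes, and gene positions are those of the table, whose start was moved by 1 to count from 1. A few members and markers are not reported here.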

Additional observations from a re-analysis of the deposited data

How the results depend on the processing

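Cnr1 kept its direction under every alternative tried, and its adjusted p stayed under 0.05 except with no filter on low RPKM (0.285). Receptor genes called higher in ULAs, 2 as reported, numbered 1 without the replicate block, after a correction for mRNA length and without a variance trend, 0 with no filter, and 1 to 4 with 1 brain left out. Those higher in DLAs, 0 as reported, numbered 1 at an adjusted p under 0.1 and 0 to 3 with 1 brain left out. With no filter limma called 0 of 27963 rows after adjustment in either direction, whereas an unadjusted p under 0.05 was reached by 1124 rows higher in ULAs and 1675 higher in DLAs, among them 5 and 4 receptor genes. Without brain 3 the calls over all rows rose from 100 to 426 in ULAs and from 128 to 687 in DLAs, and without the replicate block they fell to 23 and 18. The cause was not tested. Signalling genes higher in ULAs, 3 as reported, numbered 0 without the replicate block and with no filter, 1 with a pseudocount of 0.1, at a mean of at least 5 RPKM and after the length correction, and 1 to 7 with 1 brain left out. Those higher in DLAs, 4 as reported, numbered 0 without the replicate block and with no filter, 2 after the length correction, 1 without a trend, and 1 to 5 with 1 brain left out. The median log2 fold change of the receptor genes, -0.057, was 0.0048 with no filter, -0.0126 at a mean of at least 5 RPKM, and -0.034 to 0.0266 with 1 brain left out. Receptor genes with higher DLA values in every brain used, 6 as reported, numbered 4 under median centring and under quantile normalization, and 7 after the length correction. With 1 brain left out they numbered 7 to 11, but fewer brains then have to agree and the number cannot fall. Signs turned for 4 named receptor genes, none of which passed. With 1 brain left out, Adora2a ran from -0.0108 to 0.2327, Ednra from -0.0736 to 0.0917 with -0.0162 without brain 2, Grm5 from -0.2143 to 0.0929 and Lpar4 from -0.2172 to 0.0242, while Ednra was -0.0284 after the length correction and Grm5 was 0.0051 under quantile normalization. Depth limits the 60 receptor genes under 1 RPKM, which had at most 116 reads in a library.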
